A study of Mus musculus with 10 samples.

Results

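Among the cells of the mouse cortex at E16.5, a small population of neurons carried RNA of the transcription factor gene Tfap2d. The neurons described here, called member cells, were those Tfap2d-positive cells that also carried at least 2 of the 6 genes Thsd7a, Fam19a1, Nr2f2, Nrp2, Trps1 and Sphkap, and at most 1 unique molecular identifier (UMI, 1 counted RNA molecule) of Dlx1, Dlx2 and Dlx5 together. There were 2302 member cells among the 65779 cells kept from 10 embryos, which is 3.50% of them. The rule read measured UMIs of single cells, so the levels of the rule genes within the member cells are given as a description and were not tested.

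The study asked what the loss of Gatad2b, a subunit of the nucleosome remodeling and deacetylase (NuRD) complex, does to the developing cortex. Cortices were dissected from 3 WT embryos, 4 heterozygous embryos (Het, Gatad2b stop/+) and 3 homozygous embryos (KO, Gatad2b stop/stop), and each embryo gave 1 single-cell RNA library. The stop allele is a germline gene-trap allele, in which an inserted cassette is meant to capture the splicing of the first coding exon in every cell type, and some WT transcript may remain. The allele is present in all tissues, so changes that begin in member cells, in their progenitors or elsewhere cannot be told apart. All groups were on a C57BL/6N-Atm1Brd background, and the labels name no agent.

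AP-2 proteins are transcription factors that bind a short palindrome in DNA, and Tfap2d encodes the family member AP-2 delta, known from the midbrain roof, the retina and parts of the forebrain. Thsd7a encodes a membrane protein with thrombospondin repeats, Fam19a1 a small secreted protein, Nr2f2 the nuclear receptor COUP-TFII, Nrp2 a receptor for class 3 semaphorins, Trps1 a GATA-type repressor and Sphkap an anchor of protein kinase A. The Dlx genes mark GABAergic neurons, which arise outside the cortex. Pallial glutamatergic neurons, the excitatory neurons of the cortex and its lateral neighbours, carry Neurod2, Neurod6, Tbr1 and the glutamate transporter genes Slc17a6 and Slc17a7. Lateral parts of the pallium hold the claustrum, the piriform cortex and the pallial amygdala, which differ from the neocortex in their transcription factors.

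The promoter sequences of the genes that name the population are shown with those of Fign and Pid1, which were much higher in member cells than in other cortical neurons, because they differ in whether they hold the palindrome that AP-2 proteins bind. The sequences are RefSeq windows on GRCm38.p6 from 250 bases before to 50 bases after the start of a RefSeq transcript. They are written 5′ to 3′ on the strand of the gene, and capitals mark a match to GCCNNNGGC, a motif that reads the same on both strands. Tfap2d lies at chr1:19103022-19166346 on the plus strand and its first window at chr1:19102772-19103071. Thsd7a lies at chr6:12311610-12749410 on the minus strand with its window at chr6:12749204-12749503. The windows of Fign at chr2:64097989-64098288 and of Pid1 at chr1:84284596-84284895 are both on the minus strand. The gene spans given are those of GENCODE, whose starts can differ from RefSeq's. The window of Pid1 lies inside its GENCODE span, chr1:84036296-84364180, which holds transcripts that start further upstream, and that of Thsd7a overlaps the start of its span, so neither window stands for every start of its gene.
Tfap2d: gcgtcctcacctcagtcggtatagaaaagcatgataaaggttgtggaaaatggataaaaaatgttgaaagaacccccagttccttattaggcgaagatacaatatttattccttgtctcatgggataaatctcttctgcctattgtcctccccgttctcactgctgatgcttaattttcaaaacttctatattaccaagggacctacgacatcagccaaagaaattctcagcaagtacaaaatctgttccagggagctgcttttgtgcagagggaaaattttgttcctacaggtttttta
Thsd7a: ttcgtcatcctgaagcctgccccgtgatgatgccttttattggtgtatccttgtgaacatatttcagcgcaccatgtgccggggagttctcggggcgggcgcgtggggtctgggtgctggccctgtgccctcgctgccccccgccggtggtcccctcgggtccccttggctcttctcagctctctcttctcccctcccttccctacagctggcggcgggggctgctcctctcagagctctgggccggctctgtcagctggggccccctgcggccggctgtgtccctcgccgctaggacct
Fign: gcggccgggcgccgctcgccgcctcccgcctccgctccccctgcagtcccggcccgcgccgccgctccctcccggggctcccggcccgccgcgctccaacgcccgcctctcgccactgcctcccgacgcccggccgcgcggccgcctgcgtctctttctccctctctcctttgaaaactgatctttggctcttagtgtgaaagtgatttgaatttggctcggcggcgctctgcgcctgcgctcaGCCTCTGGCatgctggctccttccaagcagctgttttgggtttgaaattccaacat
Pid1: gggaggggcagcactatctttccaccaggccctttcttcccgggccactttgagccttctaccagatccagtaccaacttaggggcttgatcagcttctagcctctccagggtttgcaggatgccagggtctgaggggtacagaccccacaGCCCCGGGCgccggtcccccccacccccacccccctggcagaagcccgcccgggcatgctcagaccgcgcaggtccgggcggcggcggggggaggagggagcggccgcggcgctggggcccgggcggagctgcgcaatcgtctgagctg
Neither the Thsd7a window nor any of the 3 Tfap2d windows held the palindrome. Of 8 leading genes of the member cells that had a window, 3 held it (Fign, Pid1 and Fam19a5). Over all 32851 windows of the same length 16.6% held it, which is a share of windows and not of genes. The windows shown held 39.7% G and C for Tfap2d, 66.7% for Thsd7a, 68.3% for Fign and 69.7% for Pid1. The share over all windows was not matched for this. A match is a description of these letters and says nothing of binding, and the absence of a match says only that these letters are not in these windows.

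Tfap2d was found in 4027 of the kept cells, and the rule took 2302 of them. Of these cells, 215 were set aside for their Dlx UMIs, 602 carried none of the 6 further genes and 908 carried only 1 of them. Cells just inside the rule, with 2 of the 6 genes, numbered 825, and their median Tfap2d count was 2 UMIs, against 1.5 UMIs in the cells with 1 of the 6 genes and 1 UMI in those with none. The 3 sets had like depths, with medians over embryos of 12537, 12744 and 12506 UMIs per cell. The 88 members with all 6 genes were deeper, at a median of 27414 UMIs. The share of Tfap2d-positive cells that became members was higher in each KO embryo than in any WT or Het embryo. It was 52.0, 51.4 and 52.4% in the WT embryos, 52.6, 56.5, 55.0 and 58.2% in the Het embryos and 72.3, 67.0 and 63.8% in the KO embryos. The KO embryos had fewer Tfap2d-positive cells with none of the 6 genes, 22, 31 and 32 cells against 105, 98 and 86 in the WT embryos. These are raw counts, and the KO libraries kept 5147 to 6176 cells against 7159 to 8103 in WT. Median depth over kept cells was 14324.5 to 17077.5 UMIs in KO and 10795 to 14844 UMIs in WT. This share is read from the rule genes themselves, so it is a description. The parts of depth and of rule gene levels in it were not tested.

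Each embryo held 205 to 275 member cells, with 3209764 to 4995652 UMIs summed over them. The median member carried 11172.5 to 14741 UMIs by embryo, fewer than the 15033.5 to 20796 UMIs of the other pallial glutamatergic neurons. These other neurons, 34875 cells in all, carried at least 2 of Neurod2, Neurod6, Slc17a6, Slc17a7 and Tbr1, at most 1 Dlx UMI and no Tfap2d UMI, and they served as the comparison. Tfap2d UMIs were rare in cells that should lack the gene. A Tfap2d UMI was found in 0.427% of 1640 erythroid cells (95% exact interval 0.172 to 0.877%, median depth 10343 UMIs), 1.08% of 16152 interneurons (median depth 8999.5 UMIs) and 9.69% of 38616 pallial glutamatergic cells (median depth 18005.5 UMIs). Thsd7a was less specific and was found in 29.7% of the interneurons. Kept cells of different libraries shared 496 barcodes, but no barcode was a member in more than 1 library. No doublet caller was run.

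**Figure D1:**
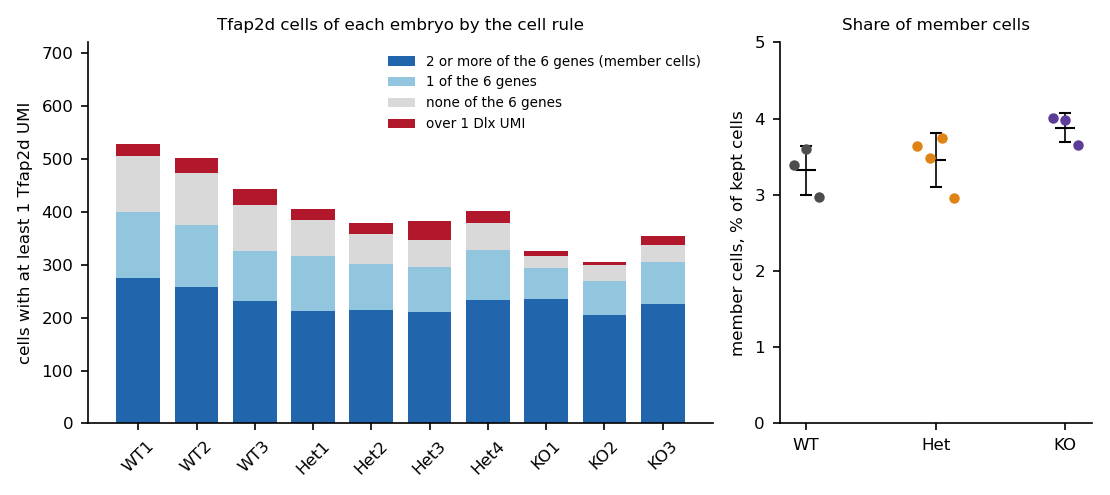
Left, the number of Tfap2d-positive cells of each embryo at each step of the rule, stacked. Right, member cells as a percent of all kept cells, with each embryo as a point and the mean with SD for each genotype. The 3 KO embryos lie between 3.66 and 4.01%, above the 3 WT embryos at 2.97 to 3.60%.

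The label of pallial neurons was borne out by the detection of markers that the rule did not read. That of lateral pallium was borne out only in part. At least 2 of the 5 glutamatergic genes were found in 97.7 to 99.5% of the members of an embryo. Neurod2 was found in a median of 98.2% of members and Tbr1 in 89.9%, against 96.8 and 71.0% of the other neurons. Neurod6, also among the 5 genes, went the other way when each cell was thinned to 5000 UMIs and both cell rules were applied anew. It was then found in a median of 87.9% of members against 97.3% of the other neurons. The other neurons were selected on carrying at least 2 of the 5 genes, so their percentages for these genes depend on that rule. Slc17a6, the transporter of many subcortical and young glutamatergic neurons, was found in 62.5% of members against 41.0% of the other neurons, and Slc17a7, the main cortical transporter, in 16.7% against 30.9%. The 11 genes listed for midbrain and diencephalon, where Tfap2d is also known, summed to 2.46 to 11.6 CPM (UMIs scaled to a fixed library total) over the members of an embryo, with En1 and Pax7 at 0 in all 10 embryos. Microglial genes summed to at most 38.3 CPM over the members of an embryo and vascular genes to at most 207 CPM. By the criteria given below, 5 of 9 progenitor genes were higher and 1 lower in members than in the other neurons. Of 11 interneuron genes 4 were higher and 1 lower, and of 3 further pallial genes 0 were higher and 1 lower. Over all genes 12.4% were higher and 11.9% lower. Erythroid genes reached 33.4 to 4002 CPM, and all 5 of them were lower than in the other neurons.

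Member cells were compared with the other pallial glutamatergic neurons of the same embryos by summing UMIs per embryo and population. Levels are CPM scaled by the trimmed mean of M-values (TMM), differences are log2 values with their standard error (SE) from edgeR, and n = 10 embryos throughout. By the criteria used for genotypes below, 3485 of 14344 genes (24.3%) differed, 1777 of them higher (12.4%) and 1708 lower (11.9%) in member cells. Since the rule selected the cells, these differences are a description and no p is given.

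Of 14 genes listed for the claustrum, lateral pallium and pallial amygdala, 6 were higher and 6 lower in member cells. The LIM-domain cofactor gene Lmo3, known from the amygdala and deep cortex, was at 209 ± 42.2 CPM (mean ± SD) in member cells and 93.4 ± 11 CPM in the other neurons, a log2 difference of 1.15 ± 0.073. It was higher in 10 of 10 embryos, as were the homeobox gene Meis2 at 1489 ± 105 against 833 ± 52.5 CPM and the ETS factor gene Etv1 at 37.6 ± 9.4 against 14.8 ± 6.98 CPM. Cyp26b1, which degrades retinoic acid, was low in both populations at 8.76 ± 3.78 and 3.77 ± 1.3 CPM and higher in the members of 9 of 10 embryos. On the other side, the claustrum markers Nr4a2 and Gnb4 were lower in member cells. Nr4a2 was at 43.7 ± 25.8 against 67.9 ± 15.8 CPM, lower in 8 of 10 embryos, and Gnb4 was at 30.7 ± 8.53 against 49.9 ± 4.65 CPM, lower in 10 of 10. Lhx2, a LIM-homeobox gene that is also known from the dorsal pallium, was at 271 ± 54.6 against 319.98 ± 30.6 CPM and lower in 9 of 10 embryos, but its difference did not pass the criteria without any single WT embryo. The list was therefore divided, and the cells are named here by their rule and not by a place.

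Of 15 neocortical layer genes, 3 were higher and 9 lower in member cells, against 12.4% of all genes higher and 11.9% lower. As a sum they were not low, at a mean of 2273 CPM in member cells and 2485 CPM in the other neurons before TMM scaling. Some genes of deep, subcortically projecting neurons were among the lower ones. Fezf2, the selector gene of corticospinal neurons, was at 54.8 ± 18.2 CPM against 155 ± 50 CPM in the other neurons (log2 difference -1.49 ± 0.085), Ldb2 at 23.9 ± 9.34 against 78.6 ± 6.95 CPM (-1.72 ± 0.14) and Tle4, a marker of corticothalamic neurons, at 52.3 ± 8.72 against 132 ± 19.5 CPM (-1.33 ± 0.072). All 3 were lower in 10 of 10 embryos. Bcl11b, which encodes CTIP2, departed from them at 594 ± 105 against 392 ± 102 CPM, higher in 10 of 10 embryos. The upper-layer gene Cux2 was likewise higher in every embryo, at 90.4 ± 9.22 against 56.5 ± 7.53 CPM. Nr2f1, the sister gene of Nr2f2 and not part of the rule, was at 745 ± 156 CPM in member cells and 310.1 ± 29.6 CPM in the other neurons, a log2 difference of 1.24 ± 0.045. Of 4 hippocampal genes, 1 was higher and 2 were lower in member cells, and the higher one was Zbtb20 at 888 ± 107 against 580.4 ± 122 CPM. Reln of Cajal-Retzius neurons was at 27.8 ± 36.8 against 101 ± 24.9 CPM.

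Several axon guidance genes were higher in member cells. Of 21 Robo, ephrin and netrin genes, 9 were higher and 5 lower in member cells, and of 16 semaphorins, plexins and neuropilin 1, 7 were higher and 4 lower, against 12.4% of all genes higher and 11.9% lower. Slit2, a repellent ligand of the Robo receptors, was at 56.2 ± 8.57 CPM against 18.9 ± 2 CPM in the other neurons, a log2 difference of 1.57 ± 0.05. Epha3, an ephrin receptor gene, was at 383 ± 50.6 against 171 ± 19.6 CPM (1.16 ± 0.032). The semaphorin ligand gene Sema3a was at 49.8 ± 4.52 against 24.1 ± 0.815 CPM and the plexin receptor gene Plxnd1 at 24.9 ± 8.53 against 10.3 ± 1.22 CPM. All 4 were higher in the members of 10 of 10 embryos. Of 18 cadherins and protocadherins, 7 were higher and 6 lower, with Cdh4, the R-cadherin gene, at 161 ± 18.1 against 70.4 ± 6.26 CPM.

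The 10 leading genes, chosen by their fold among genes outside both cell rules with at least 20 CPM in member cells, were higher in 10 of 10 embryos. They were picked for their fold and were not tested. Gcg, which encodes the precursor of glucagon and of glucagon-like peptides, stood first. It ranged from 19.5 to 31.7 CPM in the members of an embryo and from 0.821 to 2.57 CPM in the other neurons, a log2 difference of 4.23 ± 0.13. The second was Npas3, a transcription factor gene with a PAS domain, at 65.8 to 112 against 6.87 to 13.5 CPM. Fign, which encodes the microtubule-severing enzyme fidgetin, followed at 19.8 to 43.9 against 2.5 to 5.94 CPM. The ranges of the populations did not overlap for any of these 3 genes. The remaining 7 were Rwdd3, an enhancer of sumoylation, at a mean of 88.8 against 20.4 CPM, the calcium-dependent kinase gene Camk2d at 32.8 against 7.69 CPM, the homeobox cofactor gene Pbx3 at 59.4 against 15.2 CPM, Pid1 at 65 against 16.7 CPM, the zinc finger homeobox gene Zfhx4 at 86.4 against 24.2 CPM, Fam19a5, a secreted relative of Fam19a1, at 114 against 31.8 CPM and the X-linked protocadherin gene Pcdh19 at 85.5 against 24.2 CPM.

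**Figure D2:**
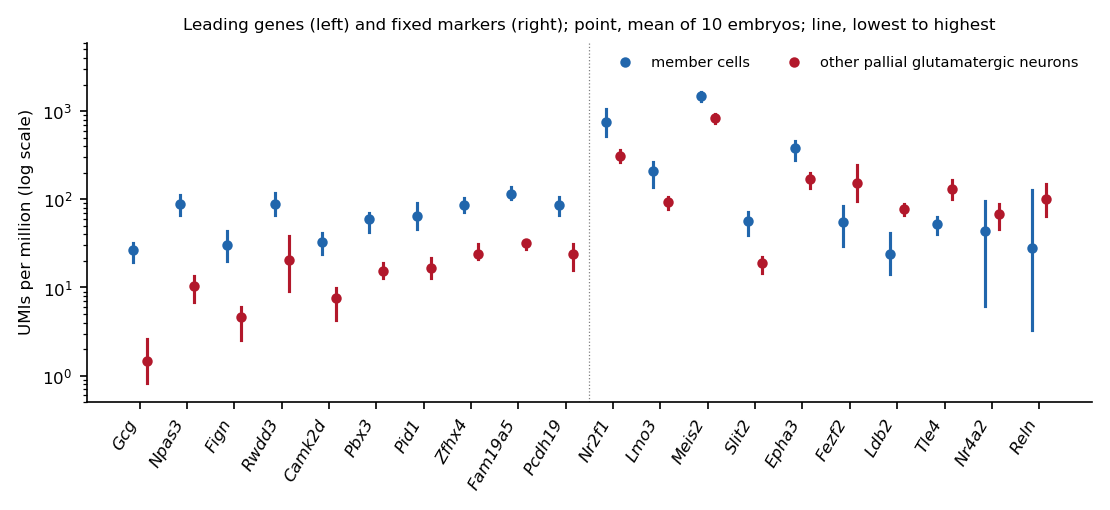
Level in CPM on a log axis of the 10 leading genes (left) and of 10 marker genes (right) in member cells and in the other pallial glutamatergic neurons. Points are means of 10 embryos and lines run from the lowest to the highest embryo; Gcg averages 26.5 CPM in member cells and 1.46 CPM in the other neurons, while Fezf2, Ldb2, Tle4 and Reln lie lower in member cells.

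The member cells were not uniform. Tfap2d itself was sparse, with 1 UMI in 709 members, 2 to 4 UMIs in 991 and 5 or more in 602. Thsd7a was found with it more often where Tfap2d was higher, in a median of 42.2% of the members with 1 Tfap2d UMI, 66.3% of those with 2 to 4 and 85.6% of those with 5 or more, at median depths of 13779, 12753 and 12566 UMIs. Over all members, Thsd7a was found in 65.0%, Nrp2 in 67.9%, Nr2f2 in 64.3%, Fam19a1 in 53.8%, Trps1 in 41.5% and Sphkap in 24.2%. In the other pallial neurons, which were deeper, the medians over embryos were 8.47, 29.4, 30.5, 9.85, 17.3 and 21.5% in the same order. Sphkap thus hardly differed between the populations. With Thsd7a in 65.0% of members, the label described 1496 of the 2302 cells in its second gene. A stricter set, called core members and defined after the data had been seen, needed at least 2 Tfap2d UMIs and 1 Thsd7a UMI and held 1170 cells.

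Members with and without a Thsd7a UMI differed in many genes outside the rule. With Thsd7a, Tbr1 was at 305 ± 44.7 CPM (mean ± SD, n = 10 embryos) against 178 ± 32.3 CPM without it, Lmo3 at 286 ± 43.9 against 107 ± 25.1 CPM and Bcl11b at 778 ± 131 against 355 ± 93.5 CPM. These were higher with Thsd7a in 10 of 10 embryos. Some genes of the dorsal pallium and of younger cells were higher without Thsd7a in 10 of 10 embryos, and others were not. The progenitor genes Mki67, Top2a and Vim were each higher with Thsd7a in 1 embryo, and Hes1 in 4. Lhx2 was at 434 ± 60.7 CPM without Thsd7a and 159.8 ± 34.9 CPM with it, and Emx1, a homeobox gene of the dorsal pallium, at 72.5 ± 15.8 against 42.5 ± 8.79 CPM. Eomes, which marks intermediate progenitors and newborn neurons, was at 254 ± 59.5 CPM without Thsd7a and 36.6 ± 23.7 CPM with it, and Unc5d, a gene of neurons in migration, at 167 ± 29.6 against 78.1 ± 20.8 CPM. These values describe a split by a measured gene and have no test.

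**Figure D3:**
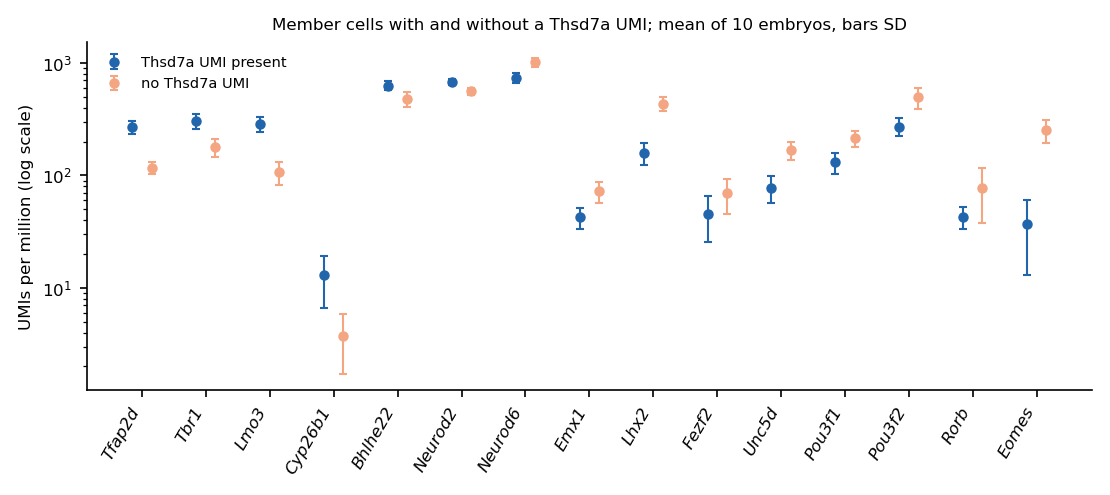
Level in CPM on a log axis of 15 genes in members with and without a Thsd7a UMI. Points are means of 10 embryos and bars are the SD; Tbr1, Lmo3 and Cyp26b1 lie higher with Thsd7a, and Lhx2, Emx1, Unc5d and Eomes lie higher without it.

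Smaller groups of members carried genes of other states. Gcg was found in 618 members (26.8%), against a median of 1.91% of the other neurons, and after thinning each cell to 5000 UMIs in 19.7% against 1.15%. Fezf2 was found in 597 members (25.9%), against 50.0% of the other neurons. Eomes was found in 417 members (18.1%), against 11.8% of the other neurons, but after thinning in 7.53% against 9.31%, so the order turned after thinning. Both cell rules were applied anew to the thinned counts, which left 1115 members. The thinned values are therefore not those of the same cells at a lower depth. Only 62 members (2.69%) carried both cell cycle genes Mki67 and Top2a. At least 2 of 5 interneuron genes were found in 57 members (2.48%) and at least 2 of 4 microglial genes in 3.

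The share of member cells among kept cells was compared between genotypes. It was 3.39, 3.60 and 2.97% in the WT embryos (3.32 ± 0.322%, SD, n = 3), 3.65, 3.48, 3.74 and 2.96% in the Het embryos (3.46 ± 0.350%, n = 4) and 4.01, 3.98 and 3.66% in the KO embryos (3.88 ± 0.194%, n = 3). The KO embryos all lay above the WT embryos, and the Het embryos overlapped with them. The difference was 0.560 percentage points for KO (two-sided exact permutation test, p = 0.1, adjusted p = 0.2), where 0.1 is the smallest p that 3 against 3 embryos can give, and 0.132 points for Het (exact p = 0.514, adjusted p = 0.514). The smallest p that 3 against 4 embryos can give in this exact test is 0.0571, so neither comparison could pass the threshold. The size of the KO difference depended on the cell filter and on the rule. With at most 5% of mitochondrial UMIs per cell it was 0.00798 points, and the KO and WT embryos overlapped (exact permutation test, p = 1). With at least 3000 UMIs per cell it was 0.271 points, again with overlap. It was 0.152 points for core members, -0.486 points when Tfap2d alone was required and 0.0792 points when each cell was thinned to 5000 UMIs. As a share of the pallial glutamatergic neurons it was 0.735 points, and the groups overlapped. WT and KO libraries also differ in the prefix of their names, described below, so genotype and prefix cannot be told apart here. Against Het replicates 1 to 3, which share the KO prefix, the KO share was higher by 0.261 points, with overlap. Het replicate 4, which shares the WT prefix, lay 0.367 points below the WT mean.

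Some genes of the rule had different levels by genotype in the cells that the rule selected on them, and their part in the share of member cells was not tested. In member cells Thsd7a was at 261, 280.3 and 287 CPM in the WT embryos, 155, 239.9, 254 and 185 CPM in the Het embryos and 176, 179 and 224 CPM in the KO embryos. Nr2f2 was at 221, 283 and 345 CPM in the WT embryos, 286, 559.9, 402 and 387 CPM in the Het embryos and 715, 406 and 432 CPM in the KO embryos. Thsd7a was lower and Nr2f2 higher in each KO embryo than in each WT embryo, which is given without a test. Tfap2d was alike in WT and KO, at 213, 189 and 209 CPM in the WT embryos and 219, 207 and 251 CPM in the KO embryos. On the scaling used between populations, Tfap2d was at 156, 218, 196 and 180 CPM in the Het embryos and 208, 187 and 205 CPM in the WT embryos. In the other pallial neurons, whose rule did not read Thsd7a, Thsd7a was also lower in KO, with a log2 fold change of -0.96 ± 0.22 (edgeR, adjusted p = 0.0047). Its level there was low, from 6.49 to 20.9 CPM by embryo. Thsd7a was also found in 29.7% of interneurons. Interneuron genes in the other pallial neurons summed to a mean of 131 CPM in WT and 40.7 CPM in KO, and their part in this fall was not tested. Thsd7a was found in 71.5 ± 2.43% of the WT members, 63.2 ± 4.27% of the Het members and 59.9 ± 2.51% of the KO members (SD). Members without Thsd7a held more RNA of Lhx2, Emx1 and Eomes, and also of Epha4 (202 ± 26.2 against 89.7 ± 30.5 CPM), Nfia (439 ± 143 against 213 ± 81.8 CPM) and Cdk2ap1 (152 ± 38.1 against 57.1 ± 22.9 CPM), each in 10 of 10 embryos. The genotype comparison was therefore repeated in core members, all of which carried Thsd7a.

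Genes were tested between genotypes on UMIs summed over the member cells of each embryo, with edgeR's quasi-likelihood F-test on all 10 embryos in 1 fit. Levels are TMM-scaled CPM of this fit, and fold changes are log2 values ± SE against WT. Calls needed a Benjamini-Hochberg adjusted p under 0.05 and a change of more than 0.25 on the log2 scale in either direction. In Het, 338 of 11695 genes were called (2.89%), 150 higher (1.28%) and 188 lower (1.61%). In KO, 1239 genes were called (10.6%), 542 higher (4.63%) and 697 lower (5.96%). The KO and WT embryos did not overlap for 32.7% of all genes tested, with KO above WT for 15.8% and below for 16.9%. For Het and WT this was 15.8%, with Het above for 7.35% and below for 8.42%. Core members gave 165 calls in Het (1.66%) and 567 in KO (5.72%) of 9918 genes. Of 69 named genes called in KO and tested in core members, 48 kept their call there and none changed direction. The 21 that lost it were Gatad2a, Hdac1, Hdac2, Emx1, Rorb, Lmo4, Epha4, Robo2, Plxnd1, Cdh4, Pcdh7, Grin1, Gabbr2, Gabra2, Cntn1, Lsamp, Stmn2, Eomes, Rwdd3, Fam19a5 and Acot2.

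Library names carried 1 of 2 prefixes, whose meaning the labels do not state. Het replicate 4 had the prefix of the 3 WT libraries, and Het replicates 1 to 3 had that of the 3 KO libraries, so genotype and prefix cannot be told apart between WT and KO. With the prefix as a covariate, a fit in which Het replicate 4 alone separates genotype from prefix among the WT-prefix libraries, 1 gene was called in Het and 64 in KO. Within one prefix, KO against Het replicates 1 to 3 gave 7 calls among 11261 genes (0.0622%). The median mitochondrial share of members moved with the prefix, 3.62 to 4.11% in the embryos of WT and Het replicate 4 and 4.37 to 4.79% in the other 6. Of the genes named below, 11 kept their KO call with the covariate, namely Gatad2b, Lhx2, Nfia, Sox5, Gnb4, Ntng1, Gabrg3, Jund, Gda, Lgals7 and Zfp677. Fold changes of KO against Het replicates 1 to 3 are given below only for Gatad2b, Mef2c, Ntng1, Gabrg3 and Crabp2, and not for the other genes described. The fit was repeated without each of the 10 embryos, and KO calls lost in any of these fits are given with their group for the genes described there. Of 42 named genes called in Het, 10 kept that call in every one of these fits, namely Gatad2b, Lhx2, Nfia, Mef2c, Ldb2, Sox11, Mdk, Arpp21, Jund and Gda, so the other Het calls each rested on the inclusion of at least 1 embryo.

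Gatad2b RNA fell by genotype, as the labels say. Gatad2b, at chr3:90293178-90363407 on the plus strand (mm10), was at 130.4, 130.3 and 142 CPM in the WT embryos, 86.6, 98.3, 91.4 and 87.2 CPM in the Het embryos and 49.9, 54.9 and 57.7 CPM in the KO embryos. The groups were separate from each other, with log2 fold changes of -0.56 ± 0.072 in Het (adjusted p = 0.0022) and -1.31 ± 0.082 in KO (adjusted p = 1.39e-06). Within a prefix, KO was lower than Het replicates 1 to 3, with a log2 fold change of -0.77 ± 0.087 (adjusted p = 0.016). The deposited counts do not separate exons, so they do not show which part of the gene the remaining UMIs hold.

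Some NuRD subunit genes moved beside Gatad2b. Of 15 genes listed, all tested, 1 rose and 2 fell in Het, Gatad2b included, and 4 rose and 2 fell in KO, where 10.6% of all genes were called (2.89% in Het). In core members 1 rose and 2 fell in KO, where 5.72% of all genes were called. Gatad2a, the paralog of Gatad2b, was at 46.6, 49.5 and 47.9 CPM in the WT embryos, 52.7, 53.7, 54.7 and 64.8 CPM in the Het embryos and 78.3, 58.8 and 55.9 CPM in the KO embryos, and rose in KO (0.43 ± 0.12, adjusted p = 0.035). Cdk2ap1, a small subunit, was at 57.7, 71.9 and 56.4 CPM in the WT embryos, 116, 108, 117 and 72.4 CPM in the Het embryos and 95.3, 156 and 122 CPM in the KO embryos, with a rise in Het (0.73 ± 0.18, adjusted p = 0.0415) and in KO (0.99 ± 0.19, adjusted p = 0.00419). Het replicate 4 lay between WT and the other Het embryos for this gene. Chd5, the remodeling ATPase of neurons, was at 116, 112 and 138 CPM in the WT embryos, 78.5, 85.4, 94.2 and 98 CPM in the Het embryos and 78.8, 62.7 and 83 CPM in the KO embryos and fell in KO (-0.70 ± 0.11, adjusted p = 0.00158). The deacetylase genes Hdac1 and Hdac2 rose in KO by 0.39 (adjusted p = 0.0397) and 0.26 (adjusted p = 0.0211). The KO calls of Gatad2a, Hdac1 and Hdac2 were each lost in 4 of the 10 fits that left out an embryo, among them that without WT replicate 3, and those of Cdk2ap1 and Chd5 were kept. The Het call of Cdk2ap1 was lost in 7 of the 10 fits, among them those without any single WT embryo.

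Of the 8 genes listed for pallial glutamatergic neurons, 2 rose in Het and 3 in KO, among them Tbr1 and Emx1, and none fell. In core members 2 rose and 1 fell in KO. Of all genes 10.6% were called in KO, 2.89% in Het and 5.72% in KO for core members. Emx1 was at 38.6, 46 and 33.3 CPM in the WT embryos, 60.5, 61, 57.3 and 60.2 CPM in the Het embryos and 52.8, 72.9 and 71.9 CPM in the KO embryos, a log2 fold change of 0.59 ± 0.12 in Het (adjusted p = 0.0227) and 0.72 ± 0.13 in KO (adjusted p = 0.00296). Tbr1, a T-box factor gene of early-born neurons, was at 242, 225 and 230.3 CPM in the WT embryos, 246, 251, 239 and 206 CPM in the Het embryos and 286, 295 and 298 CPM in the KO embryos and rose in KO (0.33 ± 0.073, adjusted p = 0.00974), with the Het and WT embryos overlapping. Lhx2 was at 204, 199.9 and 187 CPM in the WT embryos, 334, 303, 303 and 307 CPM in the Het embryos and 311, 314 and 299 CPM in the KO embryos. The Het and KO embryos were alike and all above WT, with log2 fold changes of 0.66 ± 0.059 in Het (adjusted p = 0.000158) and 0.64 ± 0.062 in KO (adjusted p = 4.75e-05). In core members the KO value of Lhx2 was 0.79 ± 0.16 (adjusted p = 0.00626). That of Emx1 was 0.59 ± 0.17 (adjusted p = 0.0521) and was not called. In Het replicate 4, which shares the prefix of the WT embryos and is 1 library, Lhx2 lay above WT by a log2 difference of 0.64. With the prefix as a covariate its KO value was 0.62 (adjusted p = 0.0201). The parts of Thsd7a and of the prefix in the rise of Lhx2 were not tested. Nr2f1 was at 601, 526 and 675 CPM in the WT embryos, 899, 856, 733 and 658 CPM in the Het embryos and 1078, 762 and 803 CPM in the KO embryos and rose in KO (0.55 ± 0.13, adjusted p = 0.017), a call that was lost without KO replicate 1 or WT replicate 2, while those of Emx1, Tbr1 and Lhx2 were kept.

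The 15 neocortical layer genes moved in both directions, with 3 higher and 3 lower in KO and 1 lower in Het. Fezf2 was at 30, 55.3 and 36.4 CPM in the WT embryos, 31.9, 50.9, 66.4 and 67 CPM in the Het embryos and 86.2, 67.7 and 65.1 CPM in the KO embryos and rose in KO (0.83 ± 0.24, adjusted p = 0.0389). Sox5, a factor of deep-layer neurons, was at 153, 152 and 174 CPM in the WT embryos, 165, 166, 186 and 231 CPM in the Het embryos and 244, 213 and 232 CPM in the KO embryos and rose in KO (0.53 ± 0.11, adjusted p = 0.00792). Zfpm2, a cofactor gene of corticothalamic neurons, was at 21.8, 16.4 and 27.3 CPM in the WT embryos, 21.1, 16.4, 21.7 and 25.8 CPM in the Het embryos and 49.9, 33.3 and 35.7 CPM in the KO embryos and likewise rose (0.90 ± 0.19, adjusted p = 0.00941). Ldb2 was at 36.7, 32.3 and 42.4 CPM in the WT embryos, 14.8, 21.2, 23.1 and 21.9 CPM in the Het embryos and 17.8, 16.4 and 16.6 CPM in the KO embryos. It fell in Het (-0.86 ± 0.14, adjusted p = 0.00654) and in KO (-1.12 ± 0.15, adjusted p = 0.000573), and no Het or KO embryo reached the WT range. The KO embryos lay inside the range of Het replicates 1 to 3, which share their prefix. Rorb, a factor gene of the input layer, fell in KO (-0.86 ± 0.22, adjusted p = 0.0198), as did Lmo4 (-0.40 ± 0.12, adjusted p = 0.0396). The KO calls of Fezf2 and Lmo4 were lost without any 1 of the KO embryos, and that of Rorb without KO replicate 2 or 3 or WT replicate 1 or 2. Of the 13 claustrum and lateral pallium genes tested, 1 rose and 1 fell in each genotype, Lhx2 and Gnb4, against 2.89% of all genes called in Het and 10.6% in KO. Gnb4, a G protein subunit gene, was at 40, 40.2 and 45.8 CPM in the WT embryos, 31.1, 27.5, 36.2 and 22.2 CPM in the Het embryos and 23.3, 24.4 and 22 CPM in the KO embryos and fell in KO (-0.85 ± 0.15, adjusted p = 0.00236). Lmo3 and Meis2, which were high in member cells, had log2 fold changes in KO of -0.28 ± 0.16 and 0.12 ± 0.07 and were not called.

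Of 2 further factor genes that the study names, Nfia rose and Mef2c fell, both in both genotypes. Nfia, a factor of neuronal and glial maturation, was at 179.6, 191 and 142 CPM in the WT embryos, 326, 328, 374 and 259 CPM in the Het embryos and 411, 458 and 436 CPM in the KO embryos, with log2 fold changes of 0.91 ± 0.11 in Het (adjusted p = 0.00199) and 1.34 ± 0.12 in KO (adjusted p = 4.72e-05). With the prefix as a covariate the KO value was 0.94 (adjusted p = 0.0207), and in core members it was 1.40 ± 0.15 (adjusted p = 1.25e-05). Mef2c, a factor of synapse development, was at 761, 777 and 838 CPM in the WT embryos, 418, 496, 455 and 571 CPM in the Het embryos and 446, 347 and 391 CPM in the KO embryos, a change of -0.71 ± 0.10 in Het (adjusted p = 0.00264) and -1.003 ± 0.11 in KO (adjusted p = 9.79e-05). KO against Het replicates 1 to 3 gave -0.21 ± 0.092 for Mef2c (adjusted p = 0.55), which was not called. The study chose its genes on these same embryos, so their direction here is not independent evidence.

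**Figure D4:**
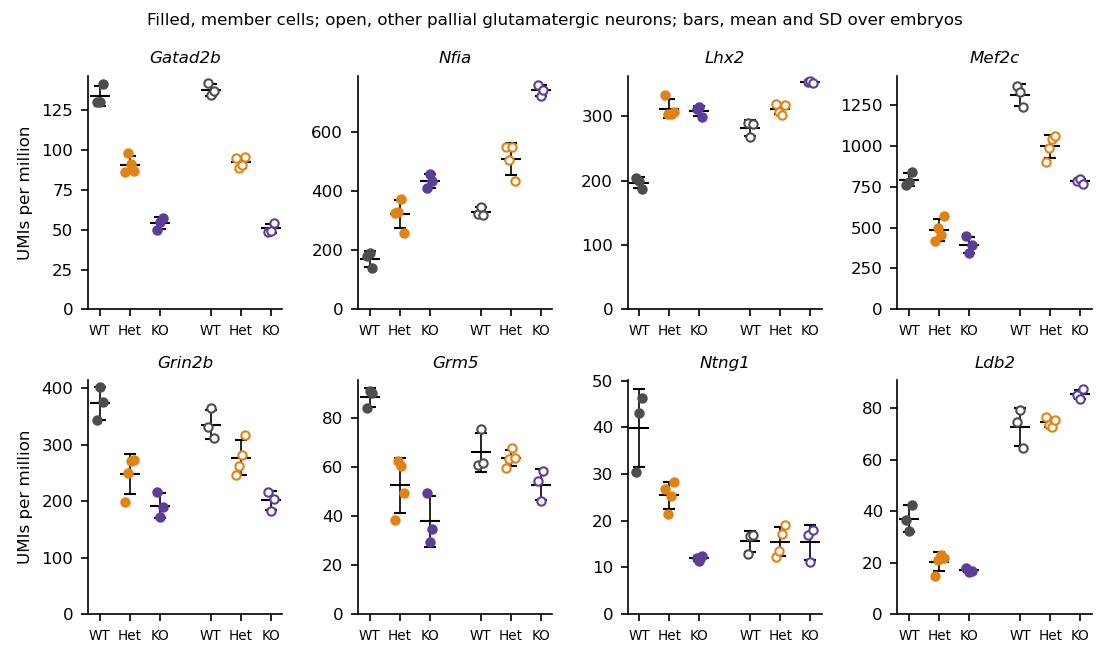
TMM-scaled CPM of 8 genes in each embryo, in member cells (filled points) and in the other pallial glutamatergic neurons (open points), by genotype. Gatad2b, Mef2c, Grin2b, Grm5, Ntng1 and Ldb2 fall from WT to KO in member cells and Nfia and Lhx2 rise; Ntng1 stays level in the other neurons.

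Guidance receptors and ligands changed in both directions. Of 20 Robo, ephrin and netrin genes tested, 1 rose and 1 fell in Het, and 2 rose and 3 fell in KO, where 10.6% of all genes were called. The largest fall was that of Ntng1, which encodes netrin G1, a membrane-bound adhesion protein of axons. Ntng1 was at 30.5, 43 and 46.4 CPM in the WT embryos, 26.8, 21.5, 25.2 and 28.3 CPM in the Het embryos and 12, 11.4 and 12.5 CPM in the KO embryos. The change was -0.64 ± 0.14 in Het (adjusted p = 0.0254) and -1.73 ± 0.17 in KO (adjusted p = 4.75e-05), and within a prefix the log2 fold change of KO against Het replicates 1 to 3 was -1.04 ± 0.15 (adjusted p = 0.0422). Epha4, an ephrin receptor gene, was at 99.4, 94.1 and 119 CPM in the WT embryos, 178, 126, 155 and 149 CPM in the Het embryos and 125, 141 and 179.9 CPM in the KO embryos and rose in both genotypes, by 0.55 ± 0.13 in Het (adjusted p = 0.0371) and 0.51 ± 0.14 in KO (adjusted p = 0.028). Its Het call was lost in 6 of the 10 fits that left out an embryo, and in core members its KO value of 0.35 ± 0.26 was not called (adjusted p = 0.497). Epha7 fell in KO (-0.65 ± 0.15, adjusted p = 0.0112), as did the netrin receptor gene Unc5c (-1.17 ± 0.33, adjusted p = 0.0364). Of 14 semaphorins, plexins and neuropilin 1 tested, 1 fell and none rose in KO, and none was called in Het. The gene that fell was Plxnd1 (-0.86 ± 0.21, adjusted p = 0.0191). Slit2 and Epha3, which were high in member cells, were not called, at 0.36 ± 0.13 (adjusted p = 0.0864) and 0.27 ± 0.11 (adjusted p = 0.139). The KO call of Ntng1 was kept with each embryo left out, and those of Epha4, Epha7, Unc5c, Plxnd1 and Robo2, the other rise among Robo, ephrin and netrin genes, were each lost without KO replicate 2, among other embryos.

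Cadherins gave 1 rise and 3 falls among 15 genes tested in KO, where 10.6% of all genes were called, and no call in Het. In core members, with fewer cells in each sum, 2 rose and 1 fell in KO, against 5.72% of all genes called there. The falls in KO were those of Cdh4 (-0.34 ± 0.079, adjusted p = 0.0148), Cdh11 (-0.84 ± 0.21, adjusted p = 0.0192) and Pcdh7 (-0.77 ± 0.14, adjusted p = 0.00319). Cdh7 was low in WT at 5.2, 3.84 and 3.94 CPM and rose to 13.9, 6.1 and 11.6 CPM in KO (1.29 ± 0.36, adjusted p = 0.0333). Only the call of Pcdh7 was kept with each embryo left out. That of Cdh4 was lost without KO replicate 1 or 2 or WT replicate 2, and those of Cdh11 and Cdh7 in 4 and 5 of the 10 fits.

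Receptor genes of both transmitters fell more often than they rose. Among 17 glutamate receptor genes tested, 3 fell in Het and 5 fell and 1 rose in KO, with a median log2 fold change of -0.48 in KO against -0.0017 over all genes. Of all genes 1.61% fell in Het, and 5.96% fell and 4.63% rose in KO. Of 14 tested in core members, 4 fell and 1 rose in KO, against 5.72% of all genes called there. The falls were not particular to member cells. In the other pallial neurons 10 of 18 fell and 1 rose in KO, where 26.6% of all genes were called. The difference of the KO change between the populations, tested below, was called for 1 of 18, against 1.48% of all genes. Grin2b, the NMDA receptor subunit of young neurons, was at 343, 402 and 376 CPM in the WT embryos, 198, 250.4, 271 and 273 CPM in the Het embryos and 215, 171 and 189 CPM in the KO embryos. It fell in Het (-0.59 ± 0.10, adjusted p = 0.0102) and in KO (-0.96 ± 0.11, adjusted p = 0.000196). The obligatory NMDA subunit gene Grin1 fell in KO (-0.94 ± 0.18, adjusted p = 0.00542). Grin2a fell from 10.4, 16.4 and 15.5 CPM in WT to 3.84, 3.61 and 2.08 CPM in KO (-2.12 ± 0.33, adjusted p = 0.00124). Grm5, a metabotropic receptor gene, was at 84, 91.1 and 90 CPM in the WT embryos, 38.1, 62.3, 60.4 and 49.2 CPM in the Het embryos and 49.5, 29.4 and 34.8 CPM in the KO embryos, and fell in KO (-1.21 ± 0.18, adjusted p = 0.000806). The kainate receptor gene Grik1 fell (-2.06 ± 0.43, adjusted p = 0.00833), and the AMPA receptor gene Gria3 rose by 0.58 ± 0.15 (adjusted p = 0.0212). The 5 falls were kept with each embryo left out, and the rise of Gria3 was lost without KO replicate 1 or 3 or WT replicate 2 or 3.

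Of 12 GABA receptor genes tested, 7 fell and 1 rose in KO and 1 fell in Het, with a median log2 fold change of -0.77 in KO, against the same shares of all genes (5.96% lower in KO and 1.61% in Het). Of 11 tested in core members, 3 fell in KO and none rose, against 5.72% of all genes called. In the other pallial neurons 11 of 13 fell in KO and none rose, where 26.6% of all genes were called. The difference of the KO change between the populations was called for none of the 13. Gabbr2, a subunit of the metabotropic GABA-B receptor, was at 39, 39.4 and 41.5 CPM in the WT embryos, 30.1, 31.9, 28.8 and 32.2 CPM in the Het embryos and 27.1, 20.5 and 18.4 CPM in the KO embryos and fell in KO (-0.84 ± 0.12, adjusted p = 0.000841). Gabrg3, a subunit of the GABA-A receptor, was at 7.57, 10.5 and 13.6 CPM in the WT embryos, 6.02, 8.85, 6.42 and 7.31 CPM in the Het embryos and 1.44, 1.39 and 1.19 CPM in the KO embryos, from 129 UMIs in 77 WT members to 15 UMIs in 13 KO members (-2.93 ± 0.33, adjusted p = 0.000152). It also passed within a prefix, at -2.36 ± 0.34 (adjusted p = 0.0422). Gabra5 (-2.42 ± 0.47, adjusted p = 0.00548) and Gabrb1 (-1.46 ± 0.30, adjusted p = 0.0067) fell too, while Gabra2 rose (0.50 ± 0.12, adjusted p = 0.0175). The call of Gabra2 was lost without any single KO embryo or WT replicate 1, and those of Gabbr2, Gabrg3, Gabra5 and Gabrb1 were kept with each embryo left out. Interneuron markers moved with the genotype in the same direction. The 11 listed genes summed to 70.7 to 244 CPM in the WT members, 37.3 to 88.1 CPM in the Het members and 23.8 to 39.5 CPM in the KO members, and 4 of the 8 tested fell in KO. Npas1 was at 0 in 2 embryos and Gad1 in 1. In the other pallial neurons the 11 genes summed to 127 to 135 CPM in WT and 37.5 to 42.9 CPM in KO. All 11 fell there in KO, where 26.6% of all genes were called. At least 2 of 5 interneuron genes were found in 3.74% of the WT members and 1.37% of the KO members. Their part in the changes of GABA receptor genes was not tested.

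Adhesion molecules of the synapse and genes of neuronal maturation changed in both directions. Of 20 synaptic adhesion genes, 8 fell and 1 rose in KO, and 4 fell and 1 rose in Het. In core members 3 fell and 2 rose in KO. The shares of all genes called were 10.6% in KO, 2.89% in Het and 5.72% in KO for core members, for these genes and those that follow. In KO the neurexin gene Nrxn3 (-1.66 ± 0.31, adjusted p = 0.00371), Lsamp (-0.68 ± 0.11, adjusted p = 0.00118) and Ntm (-0.57 ± 0.084, adjusted p = 0.000842) fell, and the receptor phosphatase gene Ptprs rose by 0.32 ± 0.063 (adjusted p = 0.0055). Of 10 genes of the young neuron state, 2 rose and 4 fell in KO, against 3 and 3 in core members. Mapt, which encodes the microtubule protein tau, was at 1170.3, 1292 and 1315 CPM in the WT embryos, 601, 794, 862 and 984 CPM in the Het embryos and 734, 673 and 728 CPM in the KO embryos and fell in Het (-0.64 ± 0.11, adjusted p = 0.0124) and in KO (-0.82 ± 0.12, adjusted p = 0.000979). Syt1, the calcium sensor of vesicle release, fell (-0.69 ± 0.11, adjusted p = 0.00118), and Sox11 and Sox4, factors of newborn neurons, rose by 0.50 ± 0.054 (adjusted p = 0.000107) and 0.27 ± 0.047 (adjusted p = 0.00271). Eomes was at 87.8, 91.9 and 54.3 CPM in the WT embryos, 209, 123, 162 and 123 CPM in the Het embryos and 135, 135 and 155 CPM in the KO embryos and rose in Het (0.97 ± 0.19, adjusted p = 0.0153) and in KO (0.84 ± 0.20, adjusted p = 0.014). In core members its KO value was 0.65 ± 0.40 (adjusted p = 0.409) and was not called. The KO call of Sox4 was lost without KO replicate 3 and that of Eomes without KO replicate 3 or WT replicate 3, and the other KO calls described here were kept. Among counted genes not described, the falls of Lrrtm3 and Stmn2 in KO were lost in 5 and 7 of the 10 fits, and that of Cntn1 without KO replicate 2. The 9 progenitor markers moved with this group, at a sum of 428 to 441 CPM in the WT members, 580 to 1944 CPM in the Het members and 516 to 598 CPM in the KO members, and their part in it was not tested.

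Of 7 immediate early genes tested, 3 rose in Het and 4 in KO, against 1.28% and 4.63% of all genes. Fos was at 36.9, 16.4 and 23.6 CPM in the WT embryos, 94.3, 86, 90.9 and 23.1 CPM in the Het embryos and 74.2, 92.1 and 108 CPM in the KO embryos, with Het replicate 4 within the WT range and the other Het embryos at the KO level. The log2 fold change was 1.84 ± 0.39 in KO (adjusted p = 0.00895) and -0.13 with the prefix as a covariate, so its direction was not kept. Fosb and Jun also rose in KO, and each call was lost in 4 of the 10 fits that left out an embryo. Jund did not follow this split. It was at 499, 474 and 489 CPM in the WT embryos, 694, 665, 647 and 607 CPM in the Het embryos and 732, 828 and 772 CPM in the KO embryos, with Het replicate 4 above every WT embryo, and rose by 0.67 ± 0.065 in KO (adjusted p = 4.75e-05), or by 0.53 with the covariate (adjusted p = 0.0305).

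The largest called changes without overlap between groups rested on few molecules. Gda, which encodes guanine deaminase, a dendritic enzyme of purine metabolism, was at 17.5, 12.3 and 22.1 CPM in the WT embryos, 3.01, 6.32, 4.52 and 2.92 CPM in the Het embryos and 0.48, 1.11 and 0.595 CPM in the KO embryos. It came from 208 UMIs in 66 WT members, 63 UMIs in 28 Het members and 8 UMIs in 6 KO members, with log2 fold changes of -2.05 ± 0.28 in Het (adjusted p = 0.00264) and -4.51 ± 0.42 in KO (adjusted p = 4.72e-05). With the prefix as a covariate the KO value was -5.14 (adjusted p = 0.00767). Crabp2, which encodes a carrier of retinoic acid, had 4 UMIs in the WT members and 88 UMIs in 42 KO members, at 6.24, 11.1 and 6.54 CPM in the KO embryos (4.50 ± 0.56, adjusted p = 0.000293), and was also higher than in Het replicates 1 to 3 by 3.27 ± 0.49 (adjusted p = 0.0422). The further large rises in KO were those of Tspo2 (2.45 ± 0.33), Sorbs2os, an antisense transcript (2.31 ± 0.56), the melanocortin receptor gene Mc4r (2.19 ± 0.43, 57 UMIs in 25 KO members and 14 UMIs in the WT members) and the galectin gene Lgals7 (2.08 ± 0.32). The call of Sorbs2os was lost without KO replicate 2 or any single WT embryo, and those of Gda, Crabp2, Tspo2, Mc4r and Lgals7 were kept with each embryo left out.

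Of the other large falls in KO, some drew many of their UMIs from single cells. Cldn5, a gene of endothelial tight junctions, had 367 of its 386 WT UMIs in 1 member of WT replicate 1, and the neuropeptide gene Npy had 245 of its 577 WT UMIs in 1 member of WT replicate 3. The KO call of Cldn5 was lost in 5 of 8 fits that left out an embryo, among them that without WT replicate 1, while that of Npy was kept in every fit, also without WT replicate 3. Npy is among the 11 interneuron genes listed, all of which also fell in KO in the other pallial neurons. Igf1, a growth factor gene, fell from 9.23, 11.5 and 15.5 CPM in WT to 2.4, 0 and 0.297 CPM in KO, where it was listed at 0 in 1 embryo and had 11 UMIs in all. Zfp677, a zinc finger gene, had 46 UMIs in the WT members and 3 UMIs in the KO members. In Het the largest rises were those of Ccdc8 (1.97 ± 0.46), Nek7 (1.73 ± 0.43), Gas1 (1.66 ± 0.35), Acot2 (1.38 ± 0.31) and Ptgds (1.36 ± 0.33), and large falls, beside Gda, were those of the channel gene Trpc5 (-2.13 ± 0.50), N4bp3 (-2.02 ± 0.50) and Cntn4 (-2.01 ± 0.36). Of these Het calls, Gda alone was kept with each embryo left out. The erythroid genes summed to 101 to 1233 CPM in the WT members, 33.4 to 4002 CPM in the Het members and 33.9 to 44.1 CPM in the KO members.

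Whether a change was larger or smaller in member cells than in the other pallial neurons was tested as an interaction of genotype and population, with the embryo as a factor. For KO, the difference of the log2 fold changes, member cells minus other neurons, was called for 213 of 14344 genes (1.48%), 57 above 0 (0.397%) and 156 below 0 (1.09%). For Het, 119 genes were called (0.83%), 35 above 0 (0.244%) and 84 below (0.586%). The other neurons alone, with more cells in each sum, gave 363 calls in Het (2.22%) and 4344 in KO (26.6%) among 16334 genes. The KO log2 fold change of Gatad2b was -1.31 in member cells and -1.44 in the other neurons (interaction 0.14 ± 0.084, adjusted p = 0.552), so no difference in its loss was detected. Nfia and Mef2c also passed no such test, at 0.19 ± 0.082 (adjusted p = 0.348) and -0.26 ± 0.093 (adjusted p = 0.22).

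Ntng1, Ldb2 and Gda changed more in member cells than in the other neurons. In the other neurons Ntng1 was at 15.5 ± 2.28 CPM in WT, 15.4 ± 3.11 CPM in Het and 15.3 ± 3.73 CPM in KO (mean ± SD), while it fell in member cells from 40 ± 8.35 CPM to 12 ± 0.56 CPM. The interaction was -1.70 ± 0.17 in KO (adjusted p = 3.47e-05) and -0.62 ± 0.14 in Het (adjusted p = 0.047). In core members the KO value of Ntng1 was -1.79 ± 0.26 (adjusted p = 0.000397). Ldb2 in the other neurons was at 72.8 ± 7.48 CPM in WT and 85.6 ± 1.79 CPM in KO, and the interaction was -1.33 ± 0.17 in KO (adjusted p = 0.000513) and -0.88 ± 0.16 in Het (adjusted p = 0.0133). Gda gave an interaction of -4.14 ± 0.46 in KO (adjusted p = 9.81e-05), with 4.59 ± 0.37 CPM in the other neurons of WT and 3.57 ± 1.58 CPM in those of KO. Grm5 fell in both populations and further in member cells, with an interaction of -0.88 ± 0.15 (adjusted p = 0.00529). Cdh11, Cdh4, Gnb4 and the contactin gene Cntn1 likewise lay below 0, at -0.80 ± 0.16, -0.59 ± 0.077, -0.67 ± 0.16 and -0.73 ± 0.15. The differences of Ntng1, Ldb2, Gda, Grm5 and Cdh4 in KO were kept with each embryo left out, while that of Gnb4 was lost in 7 of the 10 fits, of Cntn1 in 4 and of Cdh11 without KO replicate 1 or 2 or WT replicate 2. That of Ntng1 in Het was lost in 8 of the 10 fits. WT and KO libraries differ in prefix, and the part of the prefix in these differences was not tested.

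Other genes differed in the opposite direction or rose by different amounts. Itpr1, the calcium release channel of the endoplasmic reticulum, was at 54.2, 44.8 and 49.4 CPM in the WT embryos, 36.6, 43.3, 39 and 39.5 CPM in the Het embryos and 39.1, 43 and 39.5 CPM in the KO embryos in member cells and was not called in KO (-0.28 ± 0.094, adjusted p = 0.0682). In the other neurons it fell from 108 ± 9.21 CPM in WT to 43.2 ± 4.02 CPM in KO (-1.32 ± 0.072, adjusted p = 4.52e-07), and the interaction was 1.04 ± 0.083 (adjusted p = 6.56e-06). Plxna4, a plexin gene, had fold changes of 0.18 ± 0.069 in member cells and -0.58 ± 0.073 in the other neurons (interaction 0.77 ± 0.066, adjusted p = 6.56e-06), and Etv1 of -0.42 ± 0.21 and -1.81 ± 0.22 (interaction 1.43 ± 0.35, adjusted p = 0.0465). Bcl11b rose by 0.87 ± 0.072 in the other neurons (adjusted p = 6.74e-06) against 0.33 ± 0.11 in member cells (adjusted p = 0.0653), with an interaction of -0.53 ± 0.11 (adjusted p = 0.0193), and Sox5 by 1.03 against 0.53 (interaction -0.50 ± 0.11, adjusted p = 0.0286). Lhx2 rose more in member cells, with an interaction of 0.32 ± 0.059 in KO (adjusted p = 0.01) and 0.52 ± 0.055 in Het (adjusted p = 0.000509), and Epha4 rose in member cells against -0.049 ± 0.078 in the other neurons (interaction 0.55 ± 0.11, adjusted p = 0.0121). The differences of Itpr1 and Plxna4 were kept with each embryo left out. That of Lhx2 in KO was lost without KO replicate 1 or WT replicate 3, that of Epha4 without KO replicate 2 or 3, and those of Bcl11b, Sox5 and Etv1 in 4, 5 and 7 of the 10 fits.

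The 10 leading genes of member cells were tested between genotypes as well, since their choice did not use the genotype. In KO 2 rose and 1 fell, and in Het 1 fell, against 10.6% and 2.89% of all genes called. Pid1, which encodes an adaptor protein of receptor signaling, was at 92, 81.8 and 82.4 CPM in the WT embryos, 55.7, 65.4, 59 and 59.5 CPM in the Het embryos and 59.3, 47.1 and 59.2 CPM in the KO embryos in member cells. No Het or KO embryo reached the WT range, and it fell in Het (-0.51 ± 0.091, adjusted p = 0.0112) and in KO (-0.63 ± 0.10, adjusted p = 0.00126). Rwdd3 was at 83.7, 86.2 and 67.3 CPM in the WT embryos, 79.8, 79.3, 85.9 and 80.7 CPM in the Het embryos and 105, 117 and 119 CPM in the KO embryos and rose in KO (0.52 ± 0.092, adjusted p = 0.0031). It rose further in the other neurons, from 11.1 ± 2.05 CPM in WT to 32.8 ± 4.52 CPM in KO (1.57 ± 0.13, adjusted p = 6.02e-06), and the interaction was -1.06 ± 0.14 (adjusted p = 0.000694). Pcdh19 was not called in member cells (-0.044 ± 0.14, adjusted p = 0.885) and fell in the other neurons (-0.62 ± 0.12, adjusted p = 0.00209), with an interaction of 0.58 ± 0.11 (adjusted p = 0.01). Fam19a5 rose by 0.26 ± 0.081 in KO (adjusted p = 0.0497), a call lost in 8 of the 10 fits that left out an embryo. Gcg, at 20.1, 23.8 and 26.7 CPM in the WT embryos, 27.1, 31.3, 32.1 and 19.7 CPM in the Het embryos and 32.2, 30.8 and 25.9 CPM in the KO embryos, was not called (0.34 ± 0.17 in KO, adjusted p = 0.212). The KO calls of Pid1 and Rwdd3 were kept with each embryo left out, as was the interaction of Rwdd3, and that of Pcdh19 was lost without KO replicate 1.

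**Figure D5:**
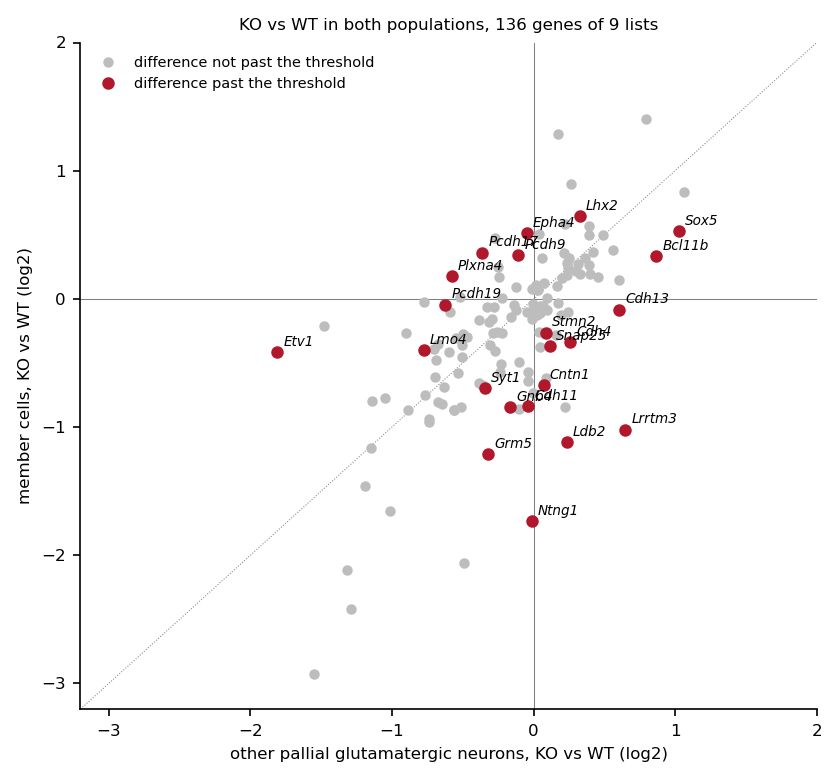
KO vs WT log2 fold change in the other pallial glutamatergic neurons (x axis) and in member cells (y axis) for 136 genes of 9 gene lists. Red points are the 22 genes past the threshold of the interaction test and the dotted line marks equal change. Ntng1, Ldb2 and Grm5 lie below that line and Etv1, Plxna4 and Lhx2 above it.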

How the data were processed

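RNA of single cells was measured in cortices dissected at E16.5 from 10 mouse embryos, each giving 1 library (10x Genomics 3′ chemistry). The deposited matrices hold raw UMI counts per gene and cell barcode, which the authors made with Cell Ranger against mm10 and did not normalize. The submitters' processing notes name version 6.0.2, and the methods name another release. Of 80071 barcodes, 65779 were kept, which carried 1000 or more UMIs and no more than 10% of mitochondrial UMIs.

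Member cells were taken by the rule given above, and the member cells and the gene lists were chosen with earlier results of these data known. UMIs were summed per embryo (3209764 to 4995652 over member cells) and tested with edgeR 4.0.16 in R 4.3.3 (filterByExpr, TMM, quasi-likelihood F-test, Benjamini-Hochberg over all genes tested). Nothing in the labels says more of the replicates than that they are separate embryos. DESeq2 1.42.0 gave an alternative test. On simulated data with planted log2 changes of 1, the Het comparison called 71.5% of the changed genes and the KO comparison 68.5%. For the difference between populations it was 60% in Het and 59.5% in KO. The simulated counts held no effect of the prefix or of the mixture of cells, so these rates hold for such data only. Shares of cells were compared by exact permutation tests over embryos, two-sided, in Python 3.11.15 with scipy 1.17.1. Intervals and depths cover counting error only. UMI counts at the 3′ end were not compared between genes. Named genes were those of 27 lists, the 5 largest rises and falls among called genes without overlap in each comparison, and the 10 leading genes, of which a few are not reported here. Gene coordinates are from GENCODE vM21 (GRCm38, the mm10 assembly). Alternatives were another test, scaling, filters on genes and cells, stricter rules, thinning, the replicate number as a block, the prefix as a covariate and each embryo left out. Core members and the split of the comparison by prefix were added after the data had been seen. Doublets were not called, and the 5% of cells with the most UMIs were left out as an alternative.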

Additional observations from a re-analysis of the deposited data

Results flagged for a closer look

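Of 108 groups of 4 Het embryos checked, 7 held an embryo far from the other 3, where chance gives about 1 in 20 (Dixon's criterion). Het replicate 4 stood apart for Gatad2a, at 64.8 CPM, and for Fos, at 23.1 CPM. Het replicate 1 stood apart for Lhx2 at 334 CPM, Grin2a at 4.01 CPM, Sox4 at 3201 CPM and the progenitor gene Fabp7 at 1025 CPM, against 193 to 221 CPM in the other 3 Het embryos. Het replicate 2 met the criterion for N4bp3, at 0.632 CPM against 0.476 to 0.502 CPM in the other 3 Het embryos. These levels rest on very few UMIs, and Het replicate 2 had the smallest sum over member cells, 3209764 UMIs. The value therefore does not show that this embryo differed.

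Differences of the KO vs WT change between populations, as member cells minus other neurons on the log2 scale, passed the interaction test for 23 of the genes picked for the text. Further genes of the lists that passed are not given. They lay above 0 for Lhx2 (0.32), Lmo4 (0.39), Pcdh9 (0.45), Epha4 (0.55), Pcdh19 (0.58), Pcdh17 (0.74), Plxna4 (0.77), Itpr1 (1.04) and Etv1 (1.43). They lay below 0 for Stmn2 (-0.34), Syt1 (-0.35), Sox5 (-0.50), Bcl11b (-0.53), Cdh4 (-0.59), Gnb4 (-0.67), Cntn1 (-0.73), Cdh11 (-0.80), Grm5 (-0.88), Rwdd3 (-1.06), Ldb2 (-1.33), Lrrtm3 (-1.65), Ntng1 (-1.70) and Gda (-4.14). For Lrrtm3 the KO and WT embryos overlapped in member cells.

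For Het vs WT, 16 differences passed among the genes picked for the text. Those above 0 were Plxna4 (0.30), Epha4 (0.48), Lhx2 (0.52), Pax6 (0.94) and Gas1 (1.37). Those below 0 were Grin2b (-0.31), Stmn2 (-0.32), Mapt (-0.325), Syt1 (-0.45), Bcl11b (-0.47), Rwdd3 (-0.61), Ntng1 (-0.62), Grm5 (-0.70), Cntn1 (-0.81), Ldb2 (-0.88) and Gda (-2.08). All WT embryos and Het replicate 4 share a library prefix, and the part of the prefix in these differences was not tested.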

How the results depend on the processing

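The share of member cells in Het against WT, 0.132 percentage points, changed sign to -0.145 with at least 3000 UMIs per cell, -0.0458 with at most 5% mitochondrial UMIs, -0.203 with Tfap2d alone and the Dlx limit, -0.0757 for core members, -0.249 after thinning and -0.0433 without WT replicate 3, and ranged from -0.0433 to 0.299 with 1 embryo left out. That of KO, 0.560, changed sign to -0.486 with Tfap2d alone, was 0.00798 with at most 5% mitochondrial UMIs and 0.271 with at least 3000 UMIs, and ranged from 0.384 to 0.700 with 1 embryo left out. Neither comparison could pass the threshold, since the smallest p is 0.1 for 3 against 3 embryos and 0.0571 for 3 against 4.

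The 338 calls in Het became 165 in core members, 1 with the library prefix as a covariate, 957 without a filter on low counts, 182 with only the 2 groups compared, 115 without the 5% of cells with the most UMIs, and 62 (without WT replicate 3) to 646 (without Het replicate 4) with 1 embryo left out. Leaving out Het replicates 1, 2 and 3 gave 169, 222 and 181, WT replicates 1 and 2 gave 113 and 88, and KO replicate 3 gave 202. The 1239 calls in KO became 813 with at least 3 of the 6 genes, 567 in core members and 64 with the prefix as a covariate, and ranged from 598 (without KO replicate 2) to 1449 with 1 embryo left out, with 681 without KO replicate 3, 784 without WT replicate 2 and 706 without WT replicate 3. The replicate block gave 661 calls in Het and 1327 in KO. Number 4 exists only in Het, so this block takes up Het replicate 4 whole. Correlations of same-numbered embryos ran from -0.125 to 0.129, and 2 embryos were closest to one of their own number. The numbers thus showed no pairing, but with so few embryos this cannot exclude shared litters. The paper calls the WT embryos littermates of the Het embryos, and the labels name no litter. DESeq2 called 325 and 931 genes. The 3485 genes between populations became 2116 with the embryos of WT and Het replicate 4 alone. Calls of the KO difference between populations, 213, ranged from 87 (without KO replicate 1) to 292, with 100 without KO replicate 2, 98 without KO replicate 3, 112 without WT replicate 1 and 129 without WT replicate 3. Those of Het, 119, became 73 with core members and ranged from 27 (without WT replicate 3) to 124, with 75 without Het replicate 1, 64 without Het replicate 3 and 47 without WT replicate 1.

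Among the genes picked for the text, 49 of 79 called in KO, 10 of 42 called in Het, 10 of 23 KO differences and 4 of 16 Het differences kept their call with every embryo left out. With the prefix as a covariate, Fos turned to -0.14 in Het and -0.13 in KO, Fosb to -0.20 and -0.35, and Jun in KO to -0.090. Depth limits the lowest genes most, since member cells held 205 to 275 cells an embryo. The causes of these changes were not tested.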

Other observations

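Further genes that the study names, chosen on these same embryos, included linker histones, which bind the nucleosome and compact chromatin, and a pair of related growth factors. The linker histone gene Hist1h1e was at 103, 73.3 and 63.3 CPM in the WT embryos, 268, 160.3, 176 and 104 CPM in the Het embryos and 216, 255 and 217 CPM in the KO embryos in member cells and rose in Het (1.14 ± 0.24, edgeR adjusted p = 0.0228) and in KO (1.52 ± 0.25, adjusted p = 0.0017). H1f0, the linker histone gene of resting cells, was at 128, 128 and 109 CPM in the WT embryos, 246, 162, 181 and 188 CPM in the Het embryos and 223, 244 and 253 CPM in the KO embryos and rose in Het (0.68 ± 0.12, adjusted p = 0.00902) and in KO (0.98 ± 0.12, adjusted p = 0.000293). With the prefix as a covariate their KO values were 0.56 (adjusted p = 0.547) and 0.91 (adjusted p = 0.0689).

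The related growth factor genes Mdk (midkine) and Ptn (pleiotrophin) moved in opposite directions. Mdk was at 179.8, 210.4 and 155 CPM in the WT embryos, 331, 303, 280.3 and 290.2 CPM in the Het embryos and 317, 315 and 351 CPM in the KO embryos and rose in Het (0.72 ± 0.092, adjusted p = 0.00199) and in KO (0.85 ± 0.10, adjusted p = 0.000167). Ptn was at 734, 763 and 717 CPM in the WT embryos, 661, 710.01, 563 and 604 CPM in the Het embryos and 349, 509.7 and 552 CPM in the KO embryos and fell in KO (-0.65 ± 0.13, adjusted p = 0.00568), while its Het value of -0.22 ± 0.12 was not called (adjusted p = 0.34). Arpp21, a phosphoprotein gene of forebrain neurons, was at 217, 222 and 279.7 CPM in the WT embryos, 129, 151, 159 and 170.3 CPM in the Het embryos and 134, 120.4 and 147 CPM in the KO embryos and fell in Het (-0.65 ± 0.10, adjusted p = 0.00624) and in KO (-0.84 ± 0.11, adjusted p = 0.000436). All 5 KO calls were kept with each embryo left out, and none of the 5 was called in KO with the prefix as a covariate. None of the 5 passed the interaction test between member cells and the other neurons in KO.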
